A study of Mus musculus with 72 samples.

Results

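Pax6, Neurog1, Neurog2, Eomes, Neurod1, Neurod2, Neurod6 and Tbr1 are 8 transcription factor genes that mark successive steps of the path from a dividing neural progenitor to a postmitotic neuron. They were followed here in whole mouse brain over 4 stages in 3 inbred strains. Members were chosen by name: every probe set whose annotation gives exactly 1 gene symbol, that symbol being one of the 8, was taken. This gave 17 probe sets for 8 of the 18194 genes that have such a probe set on the array. Of the 17 probe sets, 15 passed the filter on low values and entered the tests. The other two, Pax6 1437816_at and Neurod2 1444362_at, did not. A probe set that is low at most stages passed the filter through the stage at which it is high.

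The series held 72 Affymetrix expression arrays, 36 of brain and 36 of liver. The 12 brain groups combined 3 strains, 129S2, DBA/2J (D2) and C57BL/6J (B6), with 4 stages, one embryonic (E14.5) and the others postnatal (P1, P7 and P90, numbered by day), with 3 arrays a group. All animals were males without a recorded treatment or engineered allele. D2 and B6 came from one supplier and 129S2 from another, and the P90 mice were bought animals of 11 to 14 weeks whereas the younger animals were bred from bought mice, so in comparisons with 129S2 strain and supplier cannot be told apart, nor, between P90 and the younger stages, age and place of rearing. The labels number the replicates but do not say what each array pooled or whether replicates share a litter, so the p-values measure the spread between these samples. Levels are the authors' log2 values, so that a difference of 1 is a 2-fold difference. In whole brain, fewer cells of a type and less RNA per cell cannot be told apart.

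Pax6 is a paired-box and homeobox factor of radial glia, the dividing progenitors that line the embryonic ventricles. Neurog1 and Neurog2 are proneural basic helix-loop-helix (bHLH) factors: they bind E-boxes as dimers with E proteins, push a progenitor to leave the cell cycle and raise Notch ligands that hold back neighbouring cells. Eomes (Tbr2) is a T-box factor of intermediate progenitors of the cortex and, later in life, of other excitatory lineages, including projection neurons of the olfactory bulb. Neurod1, Neurod2 and Neurod6 are bHLH factors that act downstream of the neurogenins in newborn and maturing excitatory neurons. Tbr1 is a T-box factor of postmitotic glutamatergic neurons, above all those of the deep cortical layers. In the textbook order of the embryonic cortex, Pax6 comes before Eomes and Eomes before Tbr1. In the account below Pax6, Neurog1, Neurog2 and Eomes are called the progenitor factors, and Neurod1, Neurod2, Neurod6 and Tbr1 the postmitotic factors.

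Because most of these proteins bind E-boxes or T-box sites and several are known to act on one another, the promoters of 5 members with contrasting time courses are shown: Neurog2 and Eomes of the progenitor group, and Neurod2, Neurod6 and Tbr1 of the postmitotic group. Each run is the 250 bases before the annotated start in the RefSeq table of build GRCm38.p6, written 5′ to 3′ on the gene's strand. Capitals mark E-boxes, searched as CANNTG, whose reverse complement has the same form, so both strands are covered.
Neurog2, chr3:127632886-127633135, plus strand: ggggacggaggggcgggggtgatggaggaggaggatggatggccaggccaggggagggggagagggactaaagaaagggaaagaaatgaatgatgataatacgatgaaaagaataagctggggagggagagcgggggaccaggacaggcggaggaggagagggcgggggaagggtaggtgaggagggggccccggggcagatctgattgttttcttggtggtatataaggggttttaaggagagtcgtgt
Eomes, chr9:118477939-118478188, plus strand: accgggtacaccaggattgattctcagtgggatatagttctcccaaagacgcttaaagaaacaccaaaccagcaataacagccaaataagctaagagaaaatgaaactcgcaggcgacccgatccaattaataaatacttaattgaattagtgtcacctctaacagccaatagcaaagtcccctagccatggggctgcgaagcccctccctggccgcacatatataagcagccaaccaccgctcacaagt
Neurod2, chr11:98329646-98329895, minus strand: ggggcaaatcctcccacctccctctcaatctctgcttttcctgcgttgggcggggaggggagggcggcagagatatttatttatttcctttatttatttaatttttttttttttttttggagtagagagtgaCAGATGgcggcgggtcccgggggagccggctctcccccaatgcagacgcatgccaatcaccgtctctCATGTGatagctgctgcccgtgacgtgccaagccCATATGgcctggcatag
Neurod6, chr6:55681264-55681513, minus strand: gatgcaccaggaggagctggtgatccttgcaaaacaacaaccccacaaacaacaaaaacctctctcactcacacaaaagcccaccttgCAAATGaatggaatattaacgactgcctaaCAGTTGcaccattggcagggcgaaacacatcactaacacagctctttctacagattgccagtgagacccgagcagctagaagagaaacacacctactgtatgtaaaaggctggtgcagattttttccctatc
Tbr1, chr2:61804203-61804452, plus strand: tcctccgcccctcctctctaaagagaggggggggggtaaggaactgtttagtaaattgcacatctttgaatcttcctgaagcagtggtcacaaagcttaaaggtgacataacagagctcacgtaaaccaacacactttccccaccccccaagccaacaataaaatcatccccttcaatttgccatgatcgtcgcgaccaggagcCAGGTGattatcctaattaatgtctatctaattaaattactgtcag
All 8 genes matched the table, with 9 promoter entries since Pax6 has 2. An E-box was found in 5 of the 9 windows, against 66.2% of 32851 mouse promoter windows of the same length. The Neurog2 and Eomes windows above hold none. The Neurod2 window holds 3 E-boxes, beginning 118, 51 and 17 bases before the start, the first of which reads CAGATG, a form present on either strand in 14.4% of all windows. Neurod6 has 2, Tbr1 has 1, and the T-box motif AGGTGTGA, searched on both strands, was in none of the 9 windows and in 1.12% of all. A match is a description of letters and not a bound site. The genes themselves lie at chr3:127632733-127635636 (Neurog2), chr9:118478186-118486132 (Eomes), chr11:98325415-98329645 (Neurod2), chr6:55677818-55681263 (Neurod6) and chr2:61802863-61814114 (Tbr1). The Neurog2 and Tbr1 windows therefore fall inside the outermost annotated span of their gene, and the last bases of the Eomes window overlap the start of its span. Pax6 (chr2:105668896-105698410), Neurod1 (chr2:79452637-79456636) and Neurog1 (chr13:56250478-56252180) are not printed.

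The tissue label was checked against tissue markers. The synaptic gene Snap25 lay between 13.66 and 13.79 in all 9 P90 brain arrays, and between 10.74 and 11.79 at E14.5. The hepatocyte gene Alb was not at the bottom of the brain arrays: it had 8.13 to 13.40 at E14.5, 10.56 to 12.48 at P1, 9.81 to 11.79 at P7 and 5.58 to 6.66 at P90. Its part in the member results was not tested. Neurod6 and Tbr1 were at the bottom of the liver arrays: Neurod6 averaged 9.26 ± 0.05 in P90 brain and 2.79 ± 0.09 in P90 liver, and Tbr1 8.67 ± 0.11 in P90 brain and 2.87 ± 0.11 in P90 liver (SD, n = 9 each). Not every member separated the tissues at every stage. Neurog1 1450836_at had a median rank percentile of 35.9 among all probe sets in P90 brain and of 57.6 in P90 liver, and Neurod2 1418995_at one of 84.0 in P90 brain and of 67.9 in P90 liver. The files hold no detection calls, so these low or middling levels may lie at the probe sets' own background, and a fall to them may be understated.

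At E14.5, 3 of the 9 brain arrays stood apart in the cortical factors, 1 in each strain: 129S2 replicate 3, D2 replicate 1 and B6 replicate 3. They were singled out after their values were seen. Neurod6 was 12.53, 12.13 and 10.77 in 129S2, 10.39, 11.91 and 11.49 in D2, and 12.31, 12.30 and 8.98 in B6 (replicates 1, 2 and 3). The lowest array of each strain was the same in Eomes, with 11.29, 11.22 and 9.19 in 129S2, 9.35, 10.72 and 10.73 in D2, and 10.68, 10.71 and 7.79 in B6. Tbr1 followed the same order, at 8.23 to 9.33 in these 3 arrays and 10.29 to 10.85 in the other 6, as did Neurod2, at 9.49 to 10.02 and 10.98 to 11.64. Neurog2, at 10.47 to 11.16 and 11.38 to 11.85, and Neurod1, at 10.54 to 10.92 and 10.99 to 11.52, were lower by less. Pax6 (10.11 to 10.46 and 10.25 to 11.12) and Neurog1 overlapped between the 3 arrays and the other 6.

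Lists of genes of brain regions were also compared between these 3 arrays and the other 6. The mean level of 25 genes of cortical neuron identity was 10.14 to 10.22 in the 3 arrays and 10.41 to 10.62 in the other 6, and that of 19 genes of midbrain, hindbrain and spinal cord was 7.80 to 8.05 and 6.50 to 7.77. The mean of 17 olfactory bulb genes was 8.25 to 8.35 in the 3 arrays and 7.71 to 8.25 in the other 6, and that of 9 genes of cycling cells was 9.79 to 10.98 and 10.87 to 11.38, which overlapped. The olfactory bulb ranges nearly touched (8.254 against 8.250), as did those of midbrain, hindbrain and spinal cord (7.798 against 7.771). The forebrain factor Fezf2, needed for subcortical projection neurons, had 9.06 in 129S2 replicate 3, 9.35 in D2 replicate 1 and 7.14 in B6 replicate 3, against 9.95 to 11.08 in the others. The midbrain and hindbrain factor En2 was 5.82, 6.84 and 9.95 in 129S2, 10.18, 10.47 and 9.36 in D2, and 9.77, 9.99 and 10.95 in B6, so that 129S2 replicates 1 and 2 stood apart in the other direction. In D2, replicate 1 was not the highest in En2. The part that these values play in the member results was not tested. Changes from E14.5, counts and strain calls at E14.5 are given below for all arrays, and again without those 3 where they moved. Since the 3 were picked on cortical factors, their removal also narrows the spread of Neurod6, Eomes and Tbr1, and calls made without them are a description and no support. The spread between replicates at E14.5 was among the widest on the array: the within-group SD of Neurod6 was 1.31, that of Eomes 1.27, that of Tbr1 0.95 and that of Neurod2 0.90, at percentiles 99.7, 99.6, 99.1 and 99 of all tested probe sets, whose median SD was 0.157. At P90 the within-group SD of Eomes was 0.168 and that of Neurod1 0.0374, beside a median of 0.0815.

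**Figure D1:**
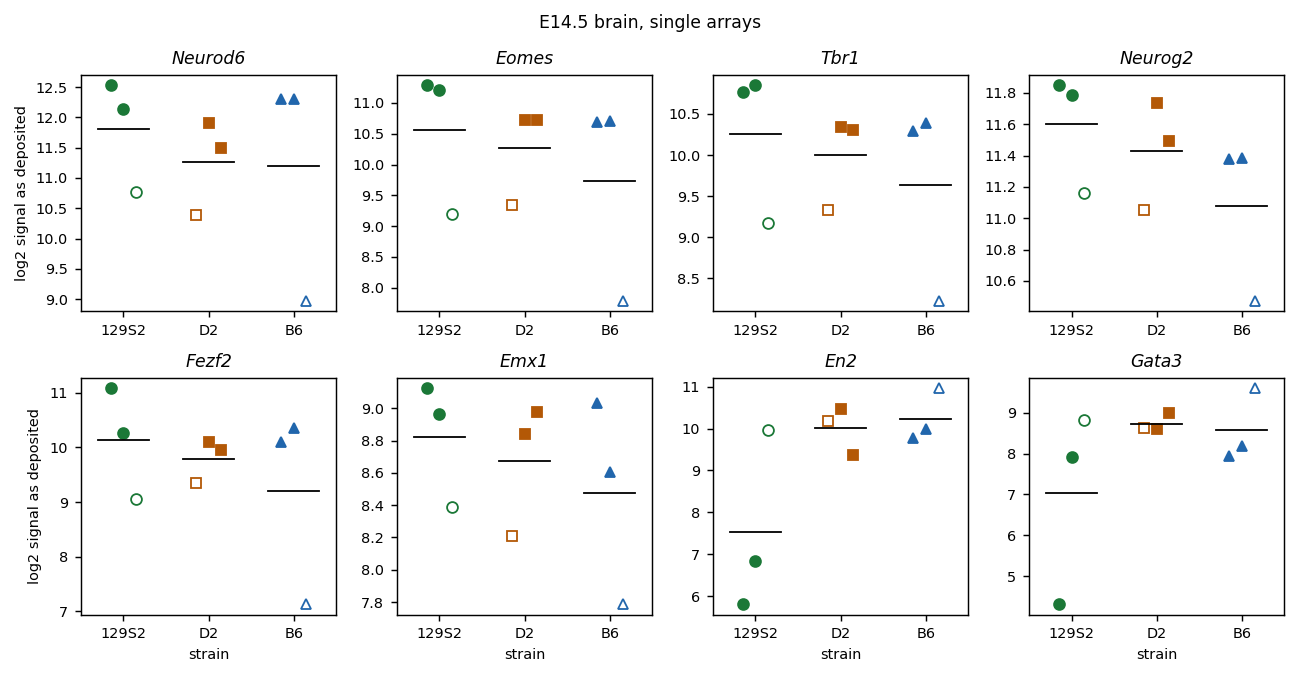
Deposited log2 levels (vertical axis) of Neurod6, Eomes, Tbr1 and Neurog2, of the forebrain genes Fezf2 and Emx1 and of the midbrain and hindbrain genes En2 and Gata3 in the 9 E14.5 brain arrays, by strain (129S2, D2, B6). Points are arrays, black lines group means, and open symbols the 3 arrays that stand apart: in Neurod6 they lie at 8.98 to 10.77, below the others at 11.49 to 12.53.

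Levels were compared between stages by size only, because each tissue and stage appears to have been normalized by the authors as its own set of 9 arrays. The 36 brain arrays were first put on 1 distribution by quantile normalization. A probe set was counted as changed when it differed by at least 2-fold, the same way, in each of the 3 strains. No p-value is given for stages, and each change is the mean ± SD over 3 strains. On that scale the median P90 minus E14.5 difference of all 25743 tested probe sets was -0.11, against -0.88 in the values as deposited, so member changes should be read against those medians.

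Of the progenitor factors, Neurog2 had the steepest loss. In the deposited values Neurog2 was 11.85, 11.79 and 11.16 in 129S2, 11.06, 11.74 and 11.49 in D2, and 11.38, 11.38 and 10.47 in B6 at E14.5. At P1 it had dropped to 6.81, 6.64 and 6.91 in 129S2, 7.00, 6.22 and 6.55 in D2, and 7.20, 6.75 and 6.80 in B6, and at P90 the 9 arrays lay between 4.93 and 5.24. All 9 E14.5 arrays lay above all postnatal arrays. Between E14.5 and P1 the quantile-normalized level changed by -4.58 ± 0.40, while P90 was 40.3-fold below E14.5 (-5.33 ± 0.31). From P1 to P7 it changed by a further -1.02 ± 0.11, and between P7 and P90 the difference was 0.28. Its rank among all probe sets of an array, in percentiles, was 95.4 at E14.5, 43.5 at P1, 24.9 at P7 and 30.2 at P90 (median array).

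Neurog1, the close relative of Neurog2 best known for sensory neurons, had a lower signal rank at E14.5, at percentile 59.3. Its leading probe set 1450836_at had 7.94, 7.65 and 7.73 in 129S2, 7.87, 8.38 and 8.40 in D2, and 7.64, 7.62 and 7.93 in B6 at E14.5. At P1 the 9 arrays lay between 6.36 and 6.66 and at P90 between 5.36 and 5.62. All 9 E14.5 arrays exceeded all later ones. The P1 minus E14.5 change was -1.36 ± 0.31 with this probe set and -3.90 ± 0.22 with 1438551_at. The 2 probe sets agree in direction but not in size. After P1 neither differed by 2-fold between stages.

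Pax6 declined in steps. Its leading probe set 1419271_at had 11.12, 11.02 and 10.46 in 129S2, 10.37, 10.89 and 10.69 in D2, and 10.25, 10.50 and 10.11 in B6 at E14.5. It had 8.27 to 8.75 at P1, 7.61 to 8.04 at P7 and 6.83 to 7.46 at P90 over 9 arrays each, and the stages did not overlap. After quantile normalization the change was -1.97 ± 0.31 between E14.5 and P1 and -0.79 ± 0.08 between P1 and P7, with no further drop between P7 and P90 (0.03 ± 0.22). A second probe set, 1452526_a_at, was higher at P90 than at P7 by 1.14 ± 0.11, the one member probe set to be 2-fold higher there, while its deposited values were 5.83 to 6.16 at P90 and 5.59 to 6.29 at P7. The 2 scales therefore give a different picture of this probe set.

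Eomes had the most uneven course. The leading probe set 1435172_at ranged from 7.79 to 11.29 at E14.5. It had 8.54, 8.35 and 8.62 in 129S2, 8.28, 8.43 and 7.83 in D2, and 8.55, 9.25 and 8.41 in B6 at P1. At P7 it had 7.98, 7.46 and 7.24 in 129S2, 7.48, 8.20 and 7.24 in D2, and 7.61, 7.25 and 7.45 in B6. The strains overlapped at each of these 3 stages, and the lowest E14.5 array lay below every P1 array. At P90 they did not overlap: 129S2 had 4.70, 4.61 and 4.69, D2 had 4.84, 4.90 and 5.24, and B6 had 6.11, 6.40 and 6.06. The P90 minus E14.5 difference was -4.95 in 129S2, -4.28 in D2 and -2.69 in B6. The P90 minus P7 difference was -1.97 in 129S2, -1.68 in D2 and -0.42 in B6, so the 2-fold rule was met in 129S2 and D2 and not in B6. Without the 3 E14.5 arrays that stand apart the P90 minus E14.5 difference was -5.63 in 129S2, -4.74 in D2 and -3.68 in B6.

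**Figure D2:**
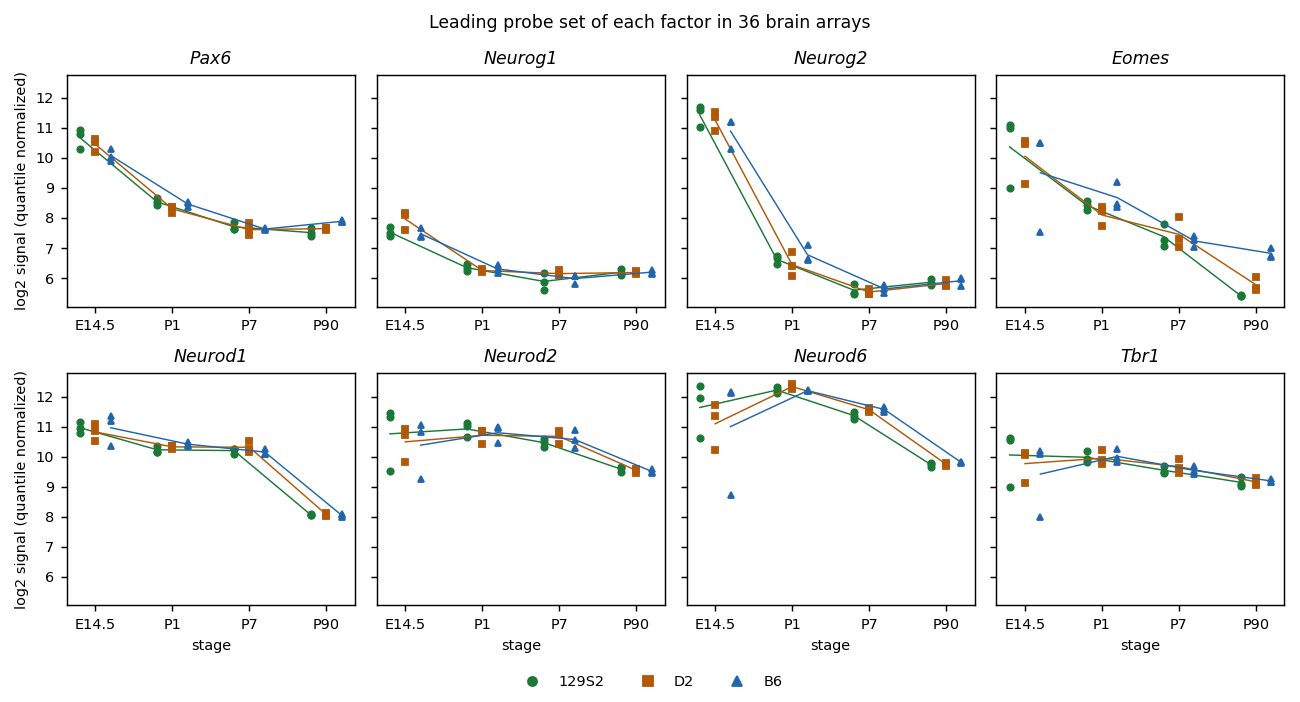
Quantile-normalized log2 level (vertical axis) of the leading probe set of each of the 8 factors at E14.5, P1, P7 and P90 in whole brain. Points are arrays, 3 for each strain and stage, and lines join the strain means; the progenitor factors drop between E14.5 and P1, most of all Neurog2 by -4.58, while Neurod6, Neurod2 and Neurod1 keep high levels to P7.

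Of the 4 postmitotic factors, 0 met the 2-fold rule between E14.5 and P1. Neurod6, a marker of pyramidal and other excitatory projection neurons, had 12.33, 12.45 and 12.20 in 129S2, 12.56, 12.46 and 12.38 in D2, and 12.32, 12.28 and 12.34 in B6 at P1. The lowest of them lay above 6 of the 9 E14.5 arrays. It had 11.50 to 11.88 at P7 and 9.17 to 9.32 at P90. Quantile-normalized, Neurod6 was higher at P1 than at E14.5 by 1.01 ± 0.37, which fell short of 2-fold in 129S2 (0.58) and was 0.31 ± 0.42 without the 3 E14.5 arrays that stand apart, and lower at P90 than at P7 by 1.74 on the log2 scale (-1.74 ± 0.10). Its rank percentile was 97.1 at E14.5, 98.3 at P1, 96.5 at P7 and 86.0 at P90.

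Neurod1, which also serves granule neurons of cerebellum and hippocampus, dropped between P7 and P90. It had 10.54 to 11.52 at E14.5, 10.21 to 10.61 at P1 and 10.28 to 10.67 at P7. At P90 it had 7.56, 7.56 and 7.55 in 129S2, 7.57, 7.63 and 7.57 in D2, and 7.57, 7.51 and 7.61 in B6, the tightest of the members. The P7 and P90 arrays were far apart, with a P90 minus P7 change of -2.17 ± 0.07 and, with 1426413_at, of -2.53 ± 0.14, whereas the P7 minus P1 change was -0.10 ± 0.14.

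Neurod2, which acts in the maturation of excitatory neurons, had 9.49 to 11.64 at E14.5, 10.53 to 11.23 at P1, 10.47 to 11.06 at P7 and 8.96 to 9.15 at P90. Its P90 minus E14.5 change of -0.9996 ± 0.16 was 2-fold in 129S2 alone (-1.17). Tbr1 had 8.23 to 10.85 at E14.5, 9.82 to 10.38 at P1, 9.57 to 10.09 at P7 and 8.49 to 8.82 at P90, with a P90 minus E14.5 change of -0.58 ± 0.34, the smallest of the 8 leading probe sets. Without the 3 E14.5 arrays the changes were -1.50 ± 0.27 for Neurod2, 2-fold in each strain, and -1.11 ± 0.29 for Tbr1. Adult levels of Neurod6, Neurod2 and Tbr1 lay at percentiles 86.0, 84.0 and 79.4, and that of Neurod1 at 65.4. The adult order of ranks among the progenitor factors was Pax6 (59.9), Neurog1 (35.9), Neurog2 (30.2) and Eomes (27.5). Ranks order probe sets within an array and do not compare transcript numbers between genes.

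Of the 15 tested member probe sets, 10 met the 2-fold rule downward for P90 minus E14.5, beside 15.2% of all tested probe sets. Of the 15, 6 were lower at P1 than at E14.5 (background 3.42%), 1 was lower at P7 than at P1 (0.369%, Eomes 1426001_at), and 3 were lower at P90 than at P7 (9.08%, both Neurod1 probe sets and Neurod6) with 1 higher (8.62%). In the first 3 comparisons 0 were higher, beside 15%, 4.06% and 1.2% of all tested. The 6 early changes all belonged to Pax6, Neurog1 and Neurog2 or to the second Eomes probe set. Neurog1 1450836_at, Neurog1 1438551_at and Pax6 1452526_a_at passed the filter (6.66) through E14.5 alone. Their P1 means were 6.47, 3.94 and 6.47. A fall from E14.5 was thus favoured by how they entered, and they add no support to the counts from E14.5. Over leading probe sets, P1 minus E14.5 counted 3 of 4 progenitor factors and 0 of 4 postmitotic factors, and P90 minus P7 counted 0 of 4 progenitor factors and 2 of 4 postmitotic factors. The median change over the 15 was -1.48, against -0.11 over all tested, for P90 minus E14.5, and -0.73 against 0.01 for P1 minus E14.5. Without the 3 E14.5 arrays that stand apart, 11 were lower at P90 and 7 at P1, and all 4 progenitor factors and 0 postmitotic factors met the rule at P1 by their leading probe sets. In the values as deposited 14, 6, 0 and 7 were lower in the P90 minus E14.5, P1 minus E14.5, P7 minus P1 and P90 minus P7 comparisons, beside 40.4%, 4.28%, 0.218% and 34.5% of all tested probe sets on that scale.

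The balance of both kinds of factor was summed up per array as the mean of the 4 progenitor factors minus the mean of the 4 postmitotic factors, each factor taken relative to its E14.5 mean in the same strain, which makes the E14.5 mean 0 by construction. E14.5 arrays ran from -0.37 to 0.71. The score was -2.60 ± 0.31 at P1, -3.01 ± 0.24 at P7 and -1.89 ± 0.32 at P90 (SD, n = 9 each). It was thus lowest at P7 and partly returned at P90, where the postmitotic factors had come down. At P90 the 3 B6 arrays lay at -1.48, -1.48 and -1.47, above 129S2 at -2.06, -2.00 and -2.04 and D2 at -2.16, -2.22 and -2.10. This strain gap also carries the spread of the 3 E14.5 arrays to which each strain is set. In B6 those were -0.37, -0.34 and 0.71. Without Neurod1 the P90 mean was -2.35, and without the 3 E14.5 arrays it was -1.69.

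**Figure D3:**
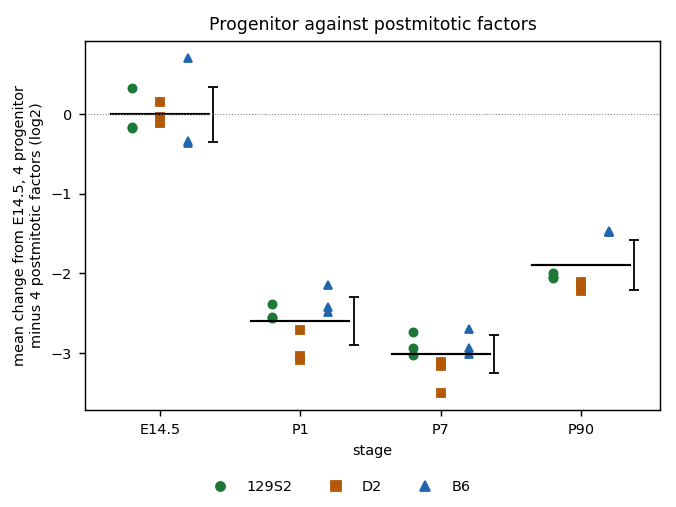
Progenitor minus postmitotic score (log2, vertical axis) of each brain array at E14.5, P1, P7 and P90, coloured by strain. Points are arrays, the black line is the mean of 9 and the bar its SD: -2.60 ± 0.31 at P1, -3.01 ± 0.24 at P7 and -1.89 ± 0.32 at P90.

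Other genes of neurogenesis were followed on the same scale through lists of named genes, all for P90 minus E14.5. Of 18 other proneural and neurogenic bHLH genes and partners tested, 10 were lower and 1 was higher, with a median of -2.18 (all tested -0.11; background 15.2% lower and 15% higher). Nhlh2 (-4.44) and Nhlh1 (-3.65), bHLH genes of newborn neurons, were at one end, and Olig1 (3.44), a factor of the oligodendrocyte lineage, at the other. Of 20 Notch pathway genes and bHLH repressors, 12 were lower and 0 were higher, with a median of -1.55. The Notch-modifying enzyme Mfng (-2.63) and the ligand Dll3 (-2.54) were lowest among them. Of 11 radial glia genes, 8 were lower and 0 higher (median -2.05). The 8 ran from the filament protein Vim (-2.94) to the progenitor factor Sox9 (-1.70), while the glutamate transporter Slc1a3 had a mean change of 1.14 that was not 2-fold in every strain. Of 9 genes of cycling cells 8 were lower (median -4.74), with Rrm2 at -6.69. Without the 3 E14.5 arrays the counts lower were 11 of 18, 12 of 20, 8 of 11 and 9 of 9 for these 4 lists. Olig1, Olig2, Hes1, Hes5, Emx2, Slc17a6, Ttr, Barhl1 and Barhl2 each stand in 2 of all the lists used here.

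The 25 tested genes of cortical neuron identity were split: 8 were lower, 2 were higher and the median was -0.59. The patterning factor Emx2 (-2.59) and Lhx5 (-2.31), a marker of Cajal-Retzius cells, were lower, while the activity-linked factor Mef2c (3.37) and the layer 4 receptor Rorb (1.59) were higher. Of 12 genes of ventral and GABAergic lineages, 7 were lower, such as Dlx2 (-3.11), and 3 were higher, among them the GABA-synthesis gene Gad1 (1.38) and the interneuron peptide Sst (1.57). Among mature neuron genes 9 of 10 were higher and 0 lower (median 2.82), with Thy1 at 7.31. Of 6 oligodendrocyte genes 5 were higher (Mbp 7.83), and of 6 astrocyte genes 4 were higher (Aqp4 5.70). The part of these shifts in cell makeup in the member changes was not tested.

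Strains were compared within stages on the deposited values with limma, and a call needed both a 1.5-fold difference and an adjusted p under 0.05 (Benjamini-Hochberg, over 25743 probe sets). Of 180 tests (15 probe sets, 12 comparisons), 0 were called in the 36-array fit, beside 2.25% of all tests. By stage, from E14.5 to P90, the background was 2.12%, 1.8%, 1.55% and 1.85% for 129S2 minus D2, 3.4%, 1.67%, 1.7% and 2.04% for 129S2 minus B6, and 4.79%, 1.73%, 1.8% and 2.5% for D2 minus B6. At an unadjusted p under 0.05 there were 13, and 4 had an adjusted p under 0.05 with less than a 1.5-fold difference. The share of all tested probe sets at these looser thresholds is not given here, so neither count is read as a result about the members. Averaged over the 4 stages, 0 of 15 were called between 129S2 and D2 (background 1.71%), 129S2 and B6 (1.84%) or D2 and B6 (1.9%). The 95% intervals reached a median of 0.349 to either side of the estimate and 1.09 for Eomes, the widest, so for Eomes a 1.5-fold difference was not detectable in this fit. The variance of Neurod6, Tbr1 and Neurod2 also takes in a wide E14.5 spread (within-group SD 1.31, 0.95 and 0.90). For these factors too, 0 calls do not exclude a 1.5-fold difference. The comparisons of 129S2 with B6 and of D2 with B6 share the B6 arrays. The arrays of the 2 strains compared did not overlap in 19 of the 180 cases, beside 20.1% over all tested probe sets and comparisons.

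The 4 smaller differences were all at E14.5. Pax6 1419271_at averaged 10.87 ± 0.36 in 129S2 and 10.29 ± 0.20 in B6 (SD, n = 3 each), a difference of 0.58 (95% interval 0.30 to 0.86, limma adjusted p = 0.00565), with D2 between them at 10.65 ± 0.26. The 129S2 and B6 arrays overlapped, 129S2 replicate 3 (10.46) lying below B6 replicate 2 (10.50). Neurog1 1450836_at was higher in D2 than in B6 by 0.49 (limma adjusted p = 0.00973), and lower in 129S2 than in D2 (-0.44, limma adjusted p = 0.0372). Neurog1 1438551_at gave 0.41 for D2 minus B6 (limma adjusted p = 0.0238). In fits of the 9 E14.5 arrays alone the adjusted p of the 4 differences were 0.299 for Pax6, 0.186 and 0.399 for Neurog1 1450836_at in D2 minus B6 and 129S2 minus D2, and 0.376 for Neurog1 1438551_at (limma), so none passed. D2 replicate 1 lay within the range of both other strains in Neurog1. Hes1, Hes5 and Mfng, Notch targets and a Notch modifier, were called higher at E14.5 in 129S2 than in B6 and in D2 than in B6, by 0.60 to 0.77. Their calls come from the fit of all brain arrays, whose variance also takes in the tighter later stages. That fit called 3.4% and 4.79% of all tested probe sets in these comparisons. Fits of the 9 E14.5 arrays alone called 1.2% and 2.04%, and are not given for Hes1, Hes5 and Mfng.

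The count of calls changed with the 3 arrays that stand apart. Without all 3, 10 of the 180 tests were called (background 2.33%). At E14.5 they were Pax6 in 129S2 minus B6 (0.70), Neurog1 1450836_at in 129S2 minus D2 (-0.59) and D2 minus B6 (0.76), Neurog1 1438551_at in D2 minus B6 (0.60), and Neurod6 in 129S2 minus D2 (0.63) and D2 minus B6 (-0.60). Neurod6 was among the genes on which the 3 arrays were picked. At P90 they were the 4 tests of both Eomes probe sets against B6. Without 129S2 replicate 3 alone, 4 were called, all in 129S2 minus B6 at E14.5: Pax6 (0.79), Neurog2 (0.74), Neurod2 (1.00) and Tbr1 (1.17). Leaving out B6 replicate 2 gave 1 call (Pax6, 0.69), leaving out B6 replicate 3 gave 3 (Neurog1 0.59 and Neurod6 -1.04 in D2 minus B6 at E14.5, and Eomes in 129S2 minus B6 at P90), and leaving out D2 replicate 1 gave 3, all of Neurog1 (-0.62, 0.66 and 0.65). Leaving out any other single array gave 0.

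**Figure D4:**
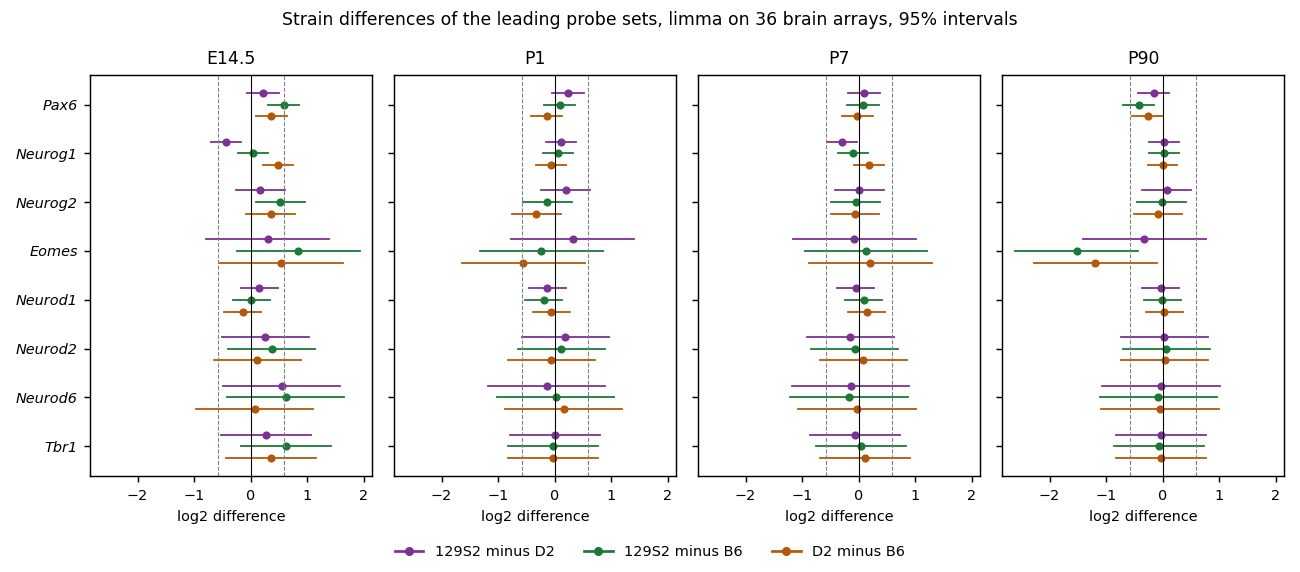
Strain differences (log2, horizontal axis) of the leading probe set of each factor within each stage for 129S2 minus D2, 129S2 minus B6 and D2 minus B6. Points are estimates of the 36-array limma fit, bars their 95% intervals, and dashed lines 1.5-fold; the widest bars belong to Eomes, whose P90 estimates against B6 are -1.52 and -1.19.

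The largest strain difference of any member was that of Eomes in adult brain. Eomes 1435172_at at P90 averaged 4.67 in 129S2 and 6.19 in B6, a difference of -1.52 (95% interval -2.61 to -0.44), and 4.99 in D2, a difference from B6 of -1.19 (-2.28 to -0.11). All 3 B6 arrays lay above all 6 arrays of 129S2 and D2, with no value between 5.24 and 6.06. Over all tested probe sets, the arrays did not overlap at P90 in 30% for 129S2 and B6, and in 33.5% for D2 and B6. The variance of the 36-array fit takes in the wide E14.5 spread. In that fit the limma adjusted p of Eomes 1435172_at was 0.113 for 129S2 minus B6 and 0.284 for D2 minus B6, so neither was called. In a fit of the 9 P90 arrays alone the same differences had a limma adjusted p of 2.3e-05 and 7.9e-05 and were called (background 2.3% and 2.77%). The second Eomes probe set, 1426001_at, had 5.23, 5.02 and 5.25 in 129S2, 4.90, 5.41 and 5.41 in D2, and 5.93, 5.90 and 5.94 in B6 at P90. Its differences from B6 were -0.76 and -0.69, with limma adjusted p of 0.00399 and 0.00503 in the 9-array fit and 0.5 and 0.626 in the 36-array fit. These 4 tests were the only member calls of the 9-array fits over all 4 stages, beside 1.69% of all tests. In liver Eomes 1435172_at lay at 3.77 to 4.31 at P90. Its median rank percentile was 30.1 in P90 liver and 27.5 in P90 brain. Since the tissues appear to have been normalized apart, the log2 levels of liver and brain cannot be set side by side.

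Some genes of the olfactory bulb moved with Eomes at P90. The list of these genes was drawn up after the Eomes values were seen, so it gives no independent support. Doc2g, a synaptotagmin-like gene of mitral and tufted cells, had 6.55, 6.53 and 6.62 in 129S2, 6.37, 6.50 and 6.75 in D2, and 7.43, 7.52 and 7.54 in B6. It was lower in 129S2 than in B6 by 0.93 on the log2 scale (-0.93, limma adjusted p = 8.05e-07) and in D2 than in B6 (-0.96, limma adjusted p = 3.31e-07). Omp, the marker of mature olfactory sensory neurons, whose axons end in the bulb, had 6.05, 5.89 and 5.91 in 129S2, 6.20, 6.16 and 6.01 in D2, and 6.52, 6.42 and 6.70 in B6, and was called in 129S2 minus B6 (-0.60, limma adjusted p = 0.000296). Cdhr1, a cadherin of mitral and tufted cells, was not in the same order: it had 8.31, 7.53 and 8.34 in 129S2, 6.92, 6.96 and 7.56 in D2, and 8.45, 8.66 and 8.63 in B6, and passed the test in D2 minus B6 (-1.43, limma adjusted p = 0.0213) but not in 129S2 minus B6 (-0.52, limma adjusted p = 0.672). Sp8, a zinc-finger factor of bulb interneurons from the GABAergic list, was called at -1.32 in 129S2 minus B6 and -1.04 in D2 minus B6. Nmb was called in D2 minus B6 (-0.70, limma adjusted p = 0.000106) but not in 129S2 minus B6 (-0.53). Further bulb genes were also higher in B6, but not called in the fit of all brain arrays. In 129S2 minus B6 and D2 minus B6, Shisa3 had -0.84 and -0.56, Pcp4l1 -0.43 and -0.56, and Islr -0.37 and -0.28. Scgn had -0.32 and -0.37, Synpr -0.32 and -0.34, and Trh -0.16 and -0.07. The remaining genes of the bulb list were lower in B6 or near 0, and none of those was called. Slc17a6 differed by 0.47 in 129S2 minus B6 and 0.41 in D2 minus B6, and Lhx1 by 0.28 and 0.36. Th, Calb2, Cck and Barhl2 lay between -0.12 and 0.03 in both comparisons.

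Over the whole list of 16 tested olfactory bulb genes at P90, 2 were lower and 0 higher in 129S2 than in B6 in the 36-array fit (background for lower 1.22%), and 3 were lower and 0 higher in D2 than in B6 (1.5%). The medians were -0.32 and -0.31, against 0.01 and 0.02 over all tested. The mean level of the 17 listed genes was 7.26 to 7.40 in 129S2, 7.24 to 7.36 in D2 and 7.57 to 7.70 in B6, so B6 lay apart. Of 18 lists at P90, all B6 arrays lay above every other array in 4 and below in 2. The mean of 19 midbrain, hindbrain and spinal cord genes was 5.34 to 5.57 in 129S2 and D2 and 5.22 to 5.30 in B6, and that of 13 ventral and GABAergic genes 7.63 to 7.66 in 129S2, 7.67 to 7.71 in D2 and 7.73 to 7.83 in B6. The hepatocyte and astrocyte lists were also higher in all B6 arrays, and the list of meninges and vessels lower. The mean level of the 25 cortical genes was 9.11 to 9.15 in 129S2, 9.11 to 9.16 in D2 and 9.15 to 9.18 in B6, and 0 of 25 were called in either comparison. Tbr1 overlapped between strains at P90, with 8.49 to 8.82 in 129S2, 8.58 to 8.81 in D2 and 8.64 to 8.77 in B6. The part that the amount of olfactory bulb in the dissected tissue plays in the Eomes difference was not tested, nor was that of the other lists.

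**Figure D5:**
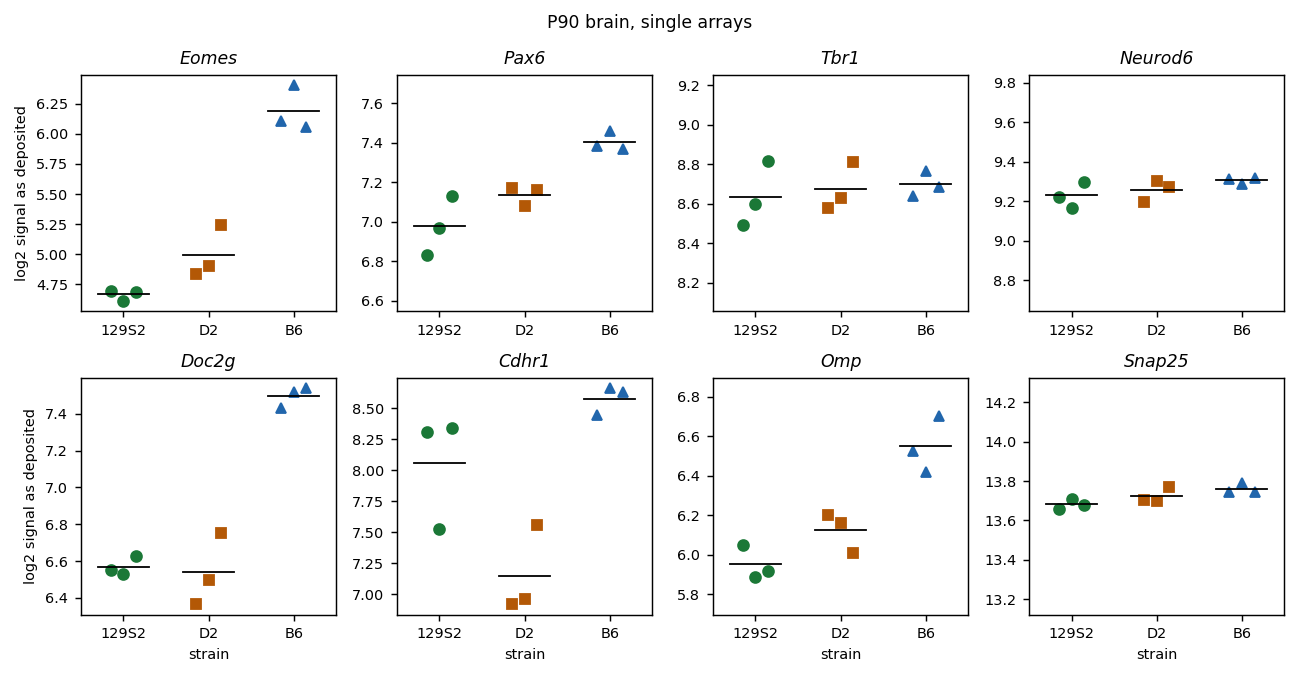
Deposited log2 levels (vertical axis) of Eomes, Pax6, Tbr1, Neurod6, the olfactory bulb genes Doc2g, Cdhr1 and Omp, and Snap25 in the 9 P90 brain arrays, by strain (129S2, D2, B6). Points are arrays and black lines group means: Eomes lies at 4.61 to 5.24 in 129S2 and D2 and at 6.06 to 6.40 in B6, while Tbr1 and Neurod6 overlap between strains.

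The leading probe set of Pax6 ordered the strains differently in the embryo and the adult. At P90 Pax6 1419271_at had 6.83, 6.97 and 7.13 in 129S2, 7.17, 7.08 and 7.16 in D2, and 7.38, 7.46 and 7.37 in B6. All B6 arrays lay above every other array, whereas B6 had the lowest mean at E14.5. Over all tested probe sets, the arrays did not overlap at P90 in 30% for 129S2 and B6, and in 33.5% for D2 and B6. The difference of Pax6 1419271_at was -0.43 in 129S2 minus B6 (limma adjusted p = 0.071) and -0.27 in D2 minus B6 (limma adjusted p = 0.416). In the fit of the 9 P90 arrays these had a limma adjusted p of 0.00483 and 0.0379, but neither reached 1.5-fold, so neither was called. The change of strain differences over stages was tested with the interaction of strain and stage. That test compares strain differences across stages that appear to have been normalized apart, which limits it. Of 15 member probe sets 1 was called, Pax6 1419271_at (limma adjusted p = 0.0347, background 4.07%), with a largest difference between strain differences of 1.01, -0.43 at P90 against 0.58 at E14.5 in 129S2 minus B6. The call was lost, at an adjusted p between 0.05 and 0.0941, on leaving out any one of 10 arrays: at E14.5, 129S2 replicates 1 and 2, B6 replicates 1 and 3 and D2 replicate 3, and at P90, 129S2 replicates 1 and 2 and B6 replicates 1, 2 and 3. The other 3 tested Pax6 probe sets were not called. At P90 1452526_a_at differed by -0.01 in 129S2 minus B6 and by 0.04 in D2 minus B6. For 1456342_at these values were -0.03 and -0.001, and for 1425960_s_at -0.16 and -0.005. Without the 9 E14.5 arrays, which leaves P1, P7 and P90, Eomes 1435172_at was called in place of Pax6 (limma adjusted p = 0.0168, difference 1.65, background 2.27%), and Pax6 had 0.0763. Without the 3 E14.5 arrays that stand apart, 6 of 15 were called (background 5.72%), with the same limit that the arrays were picked on member values.

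Of the 18 other proneural genes at E14.5, 1 was higher and 1 lower in 129S2 than in B6 (Olig3 0.98 and Olig1 -0.99), and 4 were higher and 2 lower in D2 than in B6. The background was 1.46% higher and 1.94% lower in 129S2 minus B6, and 2.25% higher and 2.54% lower in D2 minus B6. Of the 20 Notch genes 3 were higher and 0 lower in each of these comparisons, with medians of 0.30 and 0.44 against 0.01 and 0.02 over all tested. The medians of the proneural list were 0.23 and 0.21. The cortical identity list had 1 gene with a difference averaged over stages, Lmo3, a LIM-only cofactor, lower in 129S2 than in D2 (-0.67) and than in B6 (-0.82). At E14.5, 3 of 9 cycling-cell genes were higher in 129S2 (median 0.65) and 5 in D2 (median 0.71) than in B6, and En1 and En2 were lower in 129S2 than in B6 (-2.10 and -2.70). Of 12 ventral and GABAergic genes 5 were higher in 129S2 than in B6 (median 0.45) and 1 in D2 than in B6 (median 0.22). Of 11 radial glia genes 2 were higher and 1 lower in 129S2 than in B6 (median 0.33), and 3 were higher in D2 than in B6 (median 0.37). Without the 3 E14.5 arrays, 2 cycling-cell genes were higher in each of these comparisons, and 2 ventral genes in 129S2 minus B6 and 0 in D2 minus B6. All these E14.5 counts come from fits that pool the stages, whose variance also takes in the tighter later stages. Fits of the E14.5 arrays alone, which called fewer of all tested probe sets, are not given for these lists. The part of these differences in regional makeup, radial glia and cycling cells in the member differences at E14.5 was not tested.

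For each member the 3 genes whose quantile-normalized course over the 36 brain arrays was most like it were listed by Pearson's r, which is a description since the arrays share 4 stages and 1 normalization. Neurog2 was nearest to Llgl1 (r = 0.9929), Slbp (0.9888) and Rrm1 (0.9875), Pax6 to Sinhcaf (0.9868), and Neurog1 to Ddx18 (0.9708). Eomes had no neighbour above Tfap2c (0.9499), and Neurod1 was nearest to Snrnp40 (0.9832). Tbr1 was nearest to Neurod2 (0.8949) and Neurod6 (0.86), and Neurod2 to Inhbb (0.9503), Neurod6 (0.9146) and Tcf4 (0.9112). Neurod6 was nearest to Tcf4 (0.9478), Nme2 (0.9307) and Bcl11a (0.9292).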

How the data were processed

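RNA of whole brain and liver was hybridized to Affymetrix arrays of 45101 probe sets, per the labels. The deposited values are log2 signals made by the authors with RMA, per the submitters' processing notes. Its version is not given in the sources used here. Each set of 9 arrays of 1 tissue and stage appears to have been normalized apart: a pair of arrays shared 1.55% to 4.35% of their values exactly within such a set, and 0% across sets. Brain array medians ran from 6.41 to 7.30, and 6.41 to 6.45 at P90. The number of arrays limits the precision.

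Gene names came from the platform annotation: 34958 probe sets had 1 symbol, 932 several and 9211 none. Probe sets with 1 symbol were tested when at least 1 brain group averaged above 6.66, the median level of the whole table; 25743 did. Differences between strains were fitted with limma 3.58.1 (R 4.3.3): lmFit with 12 group means over 36 brain arrays, eBayes, two-sided, with Benjamini-Hochberg adjustment per comparison, and an F test for the interaction. The script was tested on simulated data. Stages were compared without a test after quantile normalization of the 36 brain arrays. Each gene was led by its probe set with the highest brain mean.

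Alternatives covered the normalization, filter, probe set rule, variance model, arrays in the fit, a replicate block and each array left out. The members and gene lists were chosen with earlier results of these data known. The olfactory bulb and the midbrain and hindbrain lists, and the removal of 3 E14.5 arrays, were added after member values were seen. Genes of other lists were named by rule: up to 4 with the largest called strain difference, and the 2 highest and 2 lowest of those 2-fold apart between stages. Fezf2, Omp, the forebrain gene Emx1 and the tissue marker Snap25 were picked outside it, after their values were seen. Gata3 and Slc1a3 also fall outside the rule. Not every gene that the rule allows is named. For the olfactory bulb list at P90 all tested genes are given instead, after their values were seen. Promoters came from a RefSeq table of GRCm38.p6. The labels do not say what a replicate number shares. Deviations of all same-numbered arrays correlated above 0.1 in 3 of 12 comparisons, P1 129S2 with B6 (lowest 0.399), P7 129S2 with D2 (0.127) and P7 D2 with B6 (0.649), so there the numbers may pair samples. Elsewhere pairing is not excluded: P7 129S2 with B6 had 0.576, 0.734 and 0.080 (replicates 1, 2 and 3). No 2 arrays were duplicates (highest correlation 0.998).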

Additional observations from a re-analysis of the deposited data

Results flagged for a closer look

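The strain difference of Pax6 1419271_at was called as changing with stage in a test of the interaction of strain and stage (limma adjusted p = 0.0347, background 4.07%). The largest difference between strain differences was 1.01 on the log2 scale, in 129S2 minus B6. Pax6 averaged 6.98 ± 0.15 in 129S2 and 7.40 ± 0.05 in B6 at P90, and 10.87 ± 0.36 in 129S2 and 10.29 ± 0.20 in B6 at E14.5 (SD, n = 3 each). Over the alternatives this value ran from 0.39 to 1.21 and its adjusted p from 0.00103 to 0.438. The call was lost on leaving out any one of 10 arrays. Of the 4 tested Pax6 probe sets no other was called. The test sets strain differences against each other across stages that appear to have been normalized apart.

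The strain difference of Eomes 1435172_at was called as changing with stage when P1, P7 and P90 alone were fitted (limma adjusted p = 0.0168, background 2.27%), an alternative chosen after seeing the data. The largest difference between strain differences was 1.65 on the log2 scale. With E14.5 in the fit its interaction had a limma adjusted p of 0.399. The second Eomes probe set, 1426001_at, was not called without E14.5 (limma adjusted p = 0.0744) or with it (0.775).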

How the results depend on the processing

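Within stages, 0 of 180 member tests were called in the fit described above. The count was 1 after quantile normalization of the 36 arrays, 1 after median centring, 5 with array weights and 4 with no fold minimum. It was 4 with the arrays of the 2 groups compared and 4 with the 9 arrays of a stage. Without the 3 E14.5 arrays it was 10, and with single arrays left out 0 to 4. Over all tests the share was 1.69% with the 9 arrays of a stage and 2.33% without the 3 E14.5 arrays. It is not given here for the other alternatives. For Eomes 1435172_at at P90 the adjusted p ran from 2.3e-05 to 0.318 in 129S2 minus B6 and from 7.9e-05 to 0.58 in D2 minus B6, with differences from -1.59 to -1.14 and from -1.32 to -0.94. The interaction count of 1 was 0 with probe sets averaged to 8 genes, 2 with array weights, 6 without the 3 E14.5 arrays, and 0 to 3 with single arrays left out. The count averaged over stages was 0 to 0 with single arrays left out. For stages, the 10 probe sets lower at P90 than at E14.5 became 6 of 8 genes with averaged probe sets and 8 to 11 with single arrays left out. The 6 lower at P1 became 3 of 8 genes and 5 to 7, and the 3 lower at P90 than at P7 became 7 in the deposited values and 3 to 3. The P90 score was -2.35 without Neurod1, and with single arrays left out the scores ran from -2.66 to -2.48 at P1, -3.07 to -2.90 at P7 and -1.95 to -1.77 at P90. With the replicate block the counts were 0 within stages, 0 over stages and 1 for the interaction, and no call changed. Of 36 same-number pairs, 18 correlated above 0.1 (-0.364 to 0.831), and 19 of 36 arrays correlated best with their own number. Of the related genes, 66 were lower and 29 higher at P90 than at E14.5 on the quantile-normalized scale, 69 and 31 without the 3 E14.5 arrays, 89 and 24 in the deposited values, and 64 and 33 after median centring. For the named probe sets, 307 values with single arrays left out and 82 under other alternatives kept their direction and their side of the threshold; 7 and 23 newly passed it, 10 and 1 no longer did, and 0 reversed. Ranks give no log2 change, so the rank alternative has no count.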
